A study of Mus musculus with 16 samples.

Results

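The D-type cyclins, the kinases they activate and the inhibitors of those kinases were followed through the HSPCs, the neutrophil lineage and the tumors of a mouse study of IACS-70654, an inhibitor of the bromodomains of the acetyltransferases CBP and P300. The group held 10 genes chosen by symbol, out of 32286 genes in the count tables. They were Ccnd1, Ccnd2 and Ccnd3 (cyclins D), Cdk4 and Cdk6 (their kinases), Cdkn1a, Cdkn1b and Cdkn1c (the Cip/Kip inhibitors p21, p27 and p57) and Cdkn2c and Cdkn2d (the INK4 inhibitors p18 and p19). All 10 had at least 1 UMI in each of the 16 libraries. Single-cell RNA was measured in live cells of 2208L tumors, in CD45+ Ter119- cells of BM and in lineage-negative c-Kit+ CD45+ cells of BM, the last called Lin- c-Kit+ below. 2208L is a Trp53-null mammary tumor line, kept as frozen pieces and transplanted into the mammary fat pad of immunocompetent WT BALB/c mice, all female, so a single tumor line stands for the disease. The BM groups were control (labelled ctrl, from WT BALB/c mice that bore no tumor and had no treatment), 2208L tumor–bearing mice given vehicle, and 2208L tumor–bearing mice given IACS-70654, with 2 libraries per group in each sort. Between vehicle and control, the tumor, its transplantation and the dosing thus cannot be told apart. The tumor groups were vehicle, IACS-70654, anti–PD-1 and a combination, with 1 library each, and all 4 came from 2208L tumors. The combination is read here as IACS-70654 with anti–PD-1. Its title does not name the agents, and the study's combination arm for tumor growth also held docetaxel. By the series record, cells of 3 mice were pooled per treatment group and the schedule was 3 days on and 2 days off drug over 7 days. The study's methods instead place the pooling of mice at each sample, and its results describe a shorter course for the BM experiment. Whether the libraries of a BM group came from different mice is therefore not settled, so the p-values below measure the spread between these libraries, which may be technical.

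In the textbook account, a mitogen raises a cyclin D, which binds Cdk4 or Cdk6, and the kinase then phosphorylates the retinoblastoma protein and releases E2F factors that start DNA replication. INK4 proteins bind Cdk4 and Cdk6 and keep cyclin D off them, whereas Cip/Kip proteins bind whole cyclin–kinase complexes and chiefly block Cdk2. Hematopoietic stem cells are mostly quiescent and are known for high p57, and neutrophils leave the cycle for good between the early precursor and the mature cell. Cdkn1a is the classical target of p53, though other factors induce it too.

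Promoter sequences show where each gene could be read by such factors, and 2 of them are printed here, those of Cdkn1a and Cdk4. They carry the members' rarest motifs, and both genes figure in the results below. Of the members, 7 had an entry among the RefSeq promoters of build GRCm38.p6, with 10 promoters in all, and Ccnd1, Ccnd2 and Cdkn1c had none. The lines below give the 250 bases before the start on the plus strand, at chr17:29090729-29090978 for Cdkn1a and chr10:127063285-127063534 for Cdk4. Capitals mark a 20-base pair of abutting p53 half-sites with 1 mismatch in Cdkn1a, and 4 copies of the E-box CACGTG, a motif that Myc can bind, in Cdk4.
Cdkn1a promoter: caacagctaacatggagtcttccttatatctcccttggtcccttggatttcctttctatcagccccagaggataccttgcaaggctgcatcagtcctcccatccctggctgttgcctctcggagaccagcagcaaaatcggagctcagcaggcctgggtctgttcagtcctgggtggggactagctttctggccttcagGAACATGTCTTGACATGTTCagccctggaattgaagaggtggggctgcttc
Cdk4 promoter: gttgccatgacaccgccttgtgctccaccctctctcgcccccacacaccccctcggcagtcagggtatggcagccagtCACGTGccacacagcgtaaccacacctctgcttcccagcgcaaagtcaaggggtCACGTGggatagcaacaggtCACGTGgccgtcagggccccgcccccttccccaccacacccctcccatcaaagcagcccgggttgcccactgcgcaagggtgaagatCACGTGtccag
The p53 pair lay at chr17:29090928-29090947 and ended 31 bases before that start. Cdkn1a has another start in the table, and its window at chr17:29093519-29093818 held no match to the half-site. With at most 1 mismatch, such a pair was present in 29 of 32851 promoters of 300 bases (0.0883%), searched on both strands, and 4 or more copies of CACGTG in 8 (0.0244%). These are matches of letters, and whether a factor bound there was not measured. The genes themselves are at chr17:29090976-29100727 (Cdkn1a, plus strand) and chr10:127063534-127067920 (Cdk4, plus strand) of GRCm38, the assembly that the labels call mm10.

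Libraries held 27427163 to 68415534 UMIs in the Lin- c-Kit+ sort, 27816638 to 54510172 in the CD45+ sort and 15590289 to 43594797 in tumors. No cell barcode was shared between libraries of a sort. The study tagged its samples with CellPlex oligos, and samples split by tag from a single capture cannot share a barcode. The absence of shared barcodes thus does not show that the libraries were separate captures, which was not tested. Cells were clustered without the 10 members and without the listed S-phase and G2/M genes. Unlisted genes could still separate cells by cycle, and a CD45+ cluster had Ube2c, Nusap1 and Mki67 among its leading genes. Clusters were then named from marker lists, so each name below means that cells were like that type by its markers. All listed markers were detected in every library for stem cells (12 of 12), multipotent progenitors (10 of 10), erythroid progenitors (12 of 12) and the 4 neutrophil classes of the CD45+ sort. Ltf and Chil3, late granule genes, were at 0 in some libraries of the neutrophil progenitors. Fits were made for the 8 Lin- c-Kit+ and 9 CD45+ classes with at least 20 cells in each library. BM cells of 1 class often lay in different clusters by group, and values within clusters are given for some results only. They are not given, for example, for Cdkn1b and Cdkn2c in neutrophil progenitors, Ccnd2 in mature neutrophils or Cdkn1a in Il1b-rich neutrophils. Levels are CPM, counts scaled to the total UMIs of a class in a library. Levels were not scaled by gene length. Whether length enters a comparison between genes, such as Cdk6 and Cdk4, was not tested.

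**Figure D1:**
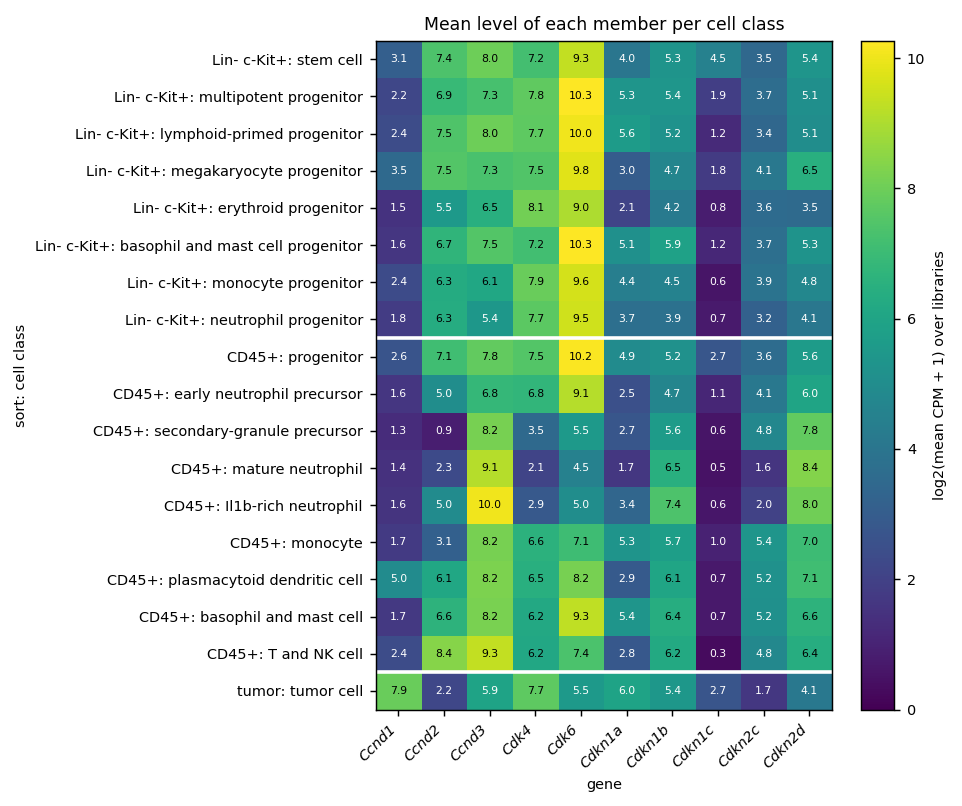
Heat map of log2(mean CPM + 1) of the 10 members (columns) in 8 Lin- c-Kit+, 9 CD45+ and the tumor cell class (rows), averaged over the libraries of a class. Brighter cells are higher: Cdk6 stands out in progenitors, Ccnd3 and Cdkn2d in mature and Il1b-rich neutrophils and Ccnd1 in tumor cells, and Cdkn1c has its highest value in stem cells.

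Among the D-type cyclins of HSPCs, Ccnd2 and Ccnd3 were both abundant and Ccnd1 was scarce. Ccnd2 ran from 35.4 to 54.5 CPM over the 6 libraries of erythroid progenitors to 109 to 246 CPM in megakaryocyte progenitors. The classes between them overlapped with their neighbors in that order, except that erythroid progenitors lay below all monocyte progenitor libraries (62.2 to 98.2 CPM). Ccnd3 was highest in stem cells (228 to 289.8 CPM) and lymphoid-primed progenitors (225 to 303 CPM), which overlapped, and lowest in neutrophil progenitors (36.7 to 48.7 CPM). As a share of all D-cyclin UMIs, Ccnd2 made up 57.8% to 70.4% in neutrophil progenitors and 29.7% to 44.9% in stem cells. Ccnd1 was at most 4.85% of D-cyclin UMIs in any library of the 8 classes, with its highest level in megakaryocyte progenitors (0.525 to 18.6 CPM).

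Cdk6, the kinase linked to myeloid and stem cell output, was more abundant than Cdk4 in each of the 8 classes. It reached 1134 to 1352 CPM in multipotent progenitors and 1148 to 1406 CPM in basophil and mast cell progenitors, which overlapped, against 492 to 539 CPM in erythroid progenitors. Stem cells spread from 443 to 803 CPM, across the erythroid range. Cdk4 was highest in erythroid progenitors (244 to 286 CPM) and lowest in stem cells (126 to 172 CPM) and basophil and mast cell progenitors (104 to 168 CPM), which overlapped with each other and not with the erythroid range.

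Of the inhibitors, Cdkn1c marked stem cells, with 27.4 and 20.96 CPM in control, 21.9 and 22.6 in vehicle, then 12.3 and 24.5 in IACS-70654. In each of the other 7 Lin- c-Kit+ classes fitted it was at or below 4.09 CPM in every library, so the lowest stem cell library stood above all of them. Cdkn1b was highest in basophil and mast cell progenitors (38.2 to 83.1 CPM) and had its lowest mean in neutrophil progenitors (10.8 to 18.3 CPM). Cdkn1a had its highest mean in lymphoid-primed progenitors (29.9 to 64.4 CPM) and lowest in erythroid progenitors (2.45 to 4.60 CPM), again with no overlap between those ends. Of the INK4 genes, Cdkn2d stood highest in megakaryocyte progenitors (67.2 to 106 CPM), above all libraries of the other 7 classes, while Cdkn2c stayed between 5.33 and 28.4 CPM in all 8 classes.

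Along the neutrophil lineage, both kinases were at a small fraction of their progenitor level in mature cells. Ccnd3, Cdkn1b and Cdkn2d had their highest CPM in late cells. In vehicle 1, median UMIs per cell were 13031 in early precursors, 8749.5 in secondary-granule precursors, 4994 in mature and 2575 in Il1b-rich neutrophils. CPM is a share of that total, so a higher CPM need not mean more UMIs per cell. Cdk6 was 682 to 777 CPM in neutrophil progenitors of the Lin- c-Kit+ sort, 426 to 625 CPM in early precursors with azurophil granule genes, 28.4 to 57.1 CPM in secondary-granule precursors and 16.6 to 28.8 CPM in mature neutrophils. Cdk4 went from 192 to 215 CPM through 96.1 to 119 and 7.33 to 12.4 to 2.47 to 4.81 CPM over the same 4 classes, with no overlap between neighbors. In Il1b-rich neutrophils Cdk6 was 27.8 to 37.9 CPM and Cdk4 3.78 to 10.3 CPM, with means above those of mature neutrophils. The first class comes from another sort than the later ones, so that step also crosses a preparation.

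Ccnd3 took over from Ccnd2 as the D-cyclin of the lineage. Its level went from 36.7 to 48.7 CPM in neutrophil progenitors through 91.3 to 142 in early precursors and 278 to 294 in secondary-granule precursors to 433 to 737 in mature neutrophils and 751 to 1456 CPM in Il1b-rich neutrophils. Its median share of D-cyclin UMIs was 33.9% in neutrophil progenitors, 82.4% in early precursors, 99.2% in secondary-granule precursors and 99.0% in mature neutrophils. Ccnd2 was 0.617 to 1.19 CPM in secondary-granule precursors but 22.7 to 47.7 CPM in Il1b-rich neutrophils, so it did not stay at its lowest level in every late class. In control 1, Ccnd3 counted 2802 UMIs over 1341 secondary-granule precursors, 3113 over 1418 mature and 844 over 260 Il1b-rich neutrophils. In vehicle 1 these were 4725 over 1682, 2553 over 1140 and 3211 over 1539. Per cell, Ccnd3 UMIs thus rose by class in control 1 and fell in vehicle 1, while CPM rose in both.

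The inhibitors did not share a single order. Cdkn2d went from 12.7 to 19.7 CPM in neutrophil progenitors and 40.2 to 75.2 in early precursors to 195 to 261 in secondary-granule precursors and 279.5 to 404 CPM in mature neutrophils, and was 198 to 337 CPM in Il1b-rich neutrophils. Cdkn1b went from 10.8 to 18.3 through 19.5 to 28.1, 44.3 to 51.9 and 77.4 to 104 to 136 to 207 CPM in Il1b-rich neutrophils, each class above the one before in all libraries. Cdkn2c had its peak in the middle, with 23.2 to 29.1 CPM in secondary-granule precursors against 0.679 to 3.44 CPM in mature neutrophils. Cdkn1a was 4.41 to 22.5 CPM in neutrophil progenitors and 1.41 to 3.87 CPM in mature neutrophils. Cdkn1c did not exceed 1.78 CPM in any library of these 5 classes. Of the inhibitor RNAs, those of p19 and p27 were thus the abundant ones in mature BM neutrophils.

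**Figure D2:**
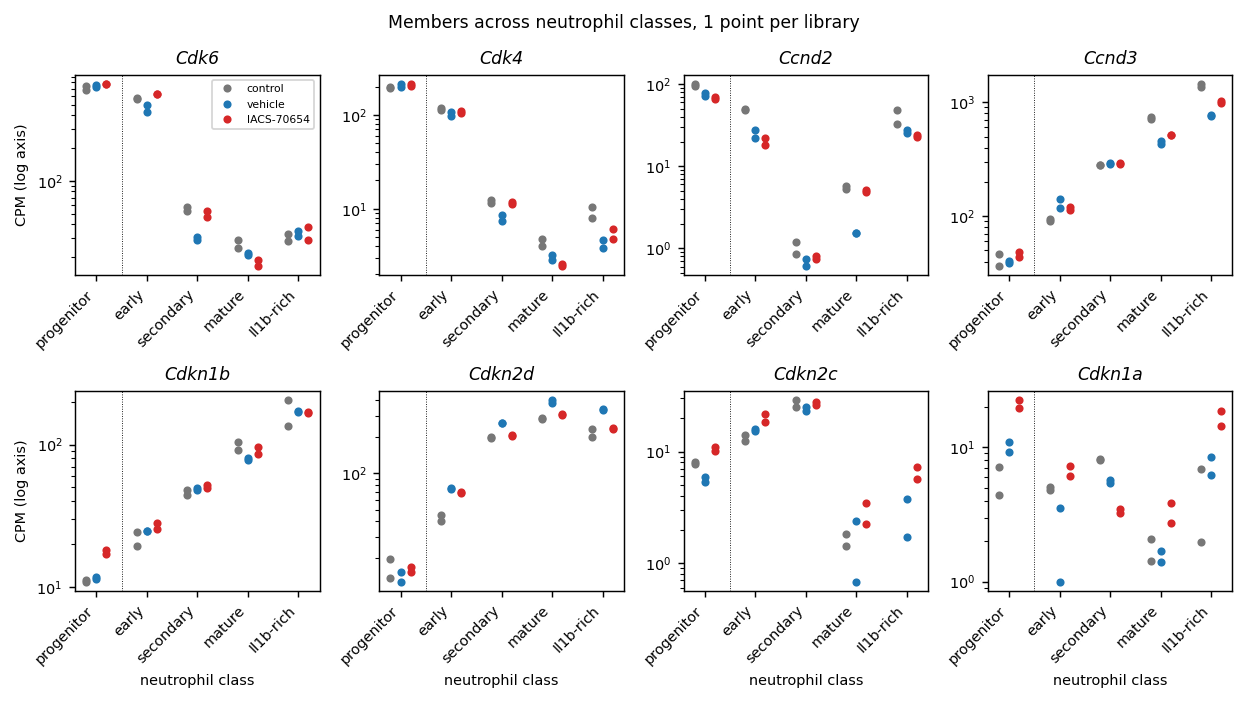
CPM (log axis) of 8 members in neutrophil progenitors of the Lin- c-Kit+ sort and 4 neutrophil classes of the CD45+ sort, 1 point per library and a color per group, with a dotted line between both sorts. Up to mature neutrophils Cdk4 and Cdk6 go down by stage and Ccnd3, Cdkn1b and Cdkn2d go up, and in Il1b-rich neutrophils the means of Cdk4 and Cdk6 lie above and that of Cdkn2d below those of mature neutrophils. Cdkn2c peaks in secondary-granule precursors. Its 2 control libraries of Il1b-rich neutrophils were at 0 and are not drawn.

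Cells in and out of the cycle were next set apart within a class. Each cell was thinned to 2000 UMIs and called low-cycle with at most 2, or high-cycle with at least 6, UMIs of 82 core S and G2/M genes, a list cut to genes nearly absent from mature neutrophils after their values were seen. Cells under that depth were left out, from 94 in control to 303 in IACS-70654 of the Lin- c-Kit+ sort and from 630 in IACS-70654 to 1109 in vehicle of the CD45+ sort. Low-cycle cells were 59.1% to 61.2% of secondary-granule precursors and 1.33% to 5.08% of early precursors. In mature neutrophils they were 93.4% to 96.8%, a value that the choice of the list fixes, and by the cycle list as first set they were 6.96% to 8.07%. By that first list, secondary-granule precursors were at 7.44% to 8.86%. Within secondary-granule precursors, Cdkn2c was 1.26 to 4.12 CPM in low-cycle and 46.3 to 58.5 CPM in high-cycle cells (log2 change -4.04, SE 0.13, adjusted p = 6.5e-13, edgeR's quasi-likelihood test with library as a block, low against high). The RNA of the INK4 inhibitor p18 was thus higher in the cycling precursors of this class. Cdkn1a had the same order, with 1.05 to 2.99 against 6.25 to 14.2 CPM (log2 change -2.54, SE 0.18, adjusted p = 5.3e-09). Cdk4 and Cdk6 were lower in low-cycle cells too, with log2 changes of -1.92 and -1.08. Of 15 member–class pairs tested in the 2 CD45+ classes with enough cells of both kinds, 10 were called, beside 45.5% of all gene–class pairs, so cells of these classes differed broadly. A pair was called at an adjusted p under 0.01 with a log2 change over 0.5 in size. Secondary-granule precursors joined the cycling cluster (2808 cells) with others, such as a cluster led by Ly6g (2554 cells). In that class 51.4% of all genes tested were called. Cycle state and stage cannot be told apart in it.

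The other CD45+ class was the monocytes, whose cells lay chiefly in a cluster led by S100a4 and Apoe and in one led by F13a1 and Nrg1. Low-cycle monocytes had less Ccnd2, Cdk4, Cdk6, Cdkn2c and Cdkn2d (log2 changes -2.08, -2.06, -2.004, -2.57 and -0.57) and more Ccnd3, at 342 to 509.6 against 191 to 248.6 CPM (log2 change 1.00, SE 0.064, adjusted p = 1.6e-11). In HSPCs the split was milder, with 7 of 21 pairs called in stem cells, multipotent progenitors and basophil and mast cell progenitors, beside 10.4% of all pairs. Ccnd3 was higher in low-cycle cells of all 3 classes, for example 268 to 286 against 136 to 228 CPM in stem cells (log2 change 0.58, SE 0.12, adjusted p = 9.9e-05), and the ranges did not overlap. Cdk4 was lower in low-cycle multipotent progenitors (114 to 183 against 223 to 249.8 CPM, log2 change -0.69, SE 0.085, adjusted p = 5.0e-11). In stem cells, Cdk6 was lower in low-cycle cells (log2 change -0.51), while the ranges of 381 to 658 and 459 to 967 CPM overlapped. Cdkn1c, the quiescence inhibitor, was 15.6 to 48.5 CPM in low-cycle and 4.15 to 30.4 CPM in high-cycle stem cells, which was not called.

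Inhibitor RNAs were higher with IACS-70654 in several classes of HSPCs. Against vehicle, 15 of 70 member–class pairs tested were called, 11 higher and 4 lower, beside 5.24% of all gene–class pairs (2.06% higher and 3.18% lower with TMM scaling, 2.71% and 2.66% with library totals). Of the 11, 9 were inhibitors: Cdkn1a in 4 classes, Cdkn1b in 3 and Cdkn2c in 2. In basophil and mast cell progenitors, Cdkn1a was 21.6 and 22.9 CPM in control, 18.1 and 18.8 in vehicle, then 74.2 and 49.6 in IACS-70654 (log2 change 1.72, SE 0.20, adjusted p = 2.4e-13 by edgeR, IACS-70654 against vehicle). In monocyte progenitors it was 15.9 and 12.96 CPM in control, 14.1 and 15.6 in vehicle, then 28.8 and 30.8 in IACS-70654 (log2 change 0.98, SE 0.10, adjusted p = 2.6e-10). In neutrophil progenitors it was 4.41 and 7.11 CPM in control, 9.30 and 10.9 in vehicle, then 22.5 and 19.7 in IACS-70654 (log2 change 1.09, SE 0.13, adjusted p = 2.1e-11). Both IACS-70654 libraries stood above the other 4 in each of these classes. With cells thinned to 2000 UMIs, the call in neutrophil progenitors was lost. Summed markers of monocyte progenitors were 2264.8 and 2308.5 CPM in control, 2553.6 and 2543.8 in vehicle, then 1962.5 and 2004.5 in IACS-70654. The part of this shift in the differences of that class was not tested.

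In multipotent progenitors, Cdkn1a was 23.8 and 33.5 CPM in control, 33.2 and 26.9 in vehicle, then 61.0 and 59.96 in IACS-70654 (log2 change 0.94, SE 0.11, adjusted p = 6.2e-12). It was among the 10 leading genes of 1 of the 2 clusters of that class, though the clustering did not use it. The higher level was present in both, with 33.0 and 26.9 CPM in vehicle against 60.4 and 58.4 with IACS-70654 in the larger cluster, and 34.4 and 27.1 against 62.7 and 64.4 CPM in the smaller. At 0.5 times the clustering resolution the call was lost. Multipotent progenitors made up 9.70% and 11.2% of cells in control, 8.57% and 10.4% in vehicle, then 27.9% and 28.7% in IACS-70654. The part of this in the Cdkn1a difference was not tested. Neutrophil progenitors of vehicle lay mostly in a cluster led by Pglyrp1 and Nkg7 and those of IACS-70654 mostly in one led by S100a8 and Alas1. Within the first, Cdkn1a was 10.7 and 12.8 CPM in its 1144 vehicle cells and 26.6 and 19.0 CPM in its 65 IACS-70654 cells. In the cluster led by S100a8 and Alas1 it was 6.29 and 0 CPM in its 40 and 23 vehicle cells, where 3 UMIs would be 9.43 and 21.6 CPM, and 24.6 and 23.0 CPM in its 1093 IACS-70654 cells. Another cluster, led by S100a9 and S100a8, held 632 vehicle and 298 IACS-70654 cells, and there it was 4.78 and 6.11 against 8.84 and 6.10 CPM, so the vehicle and IACS-70654 libraries overlapped. Basophil and mast cell progenitors in both of their clusters showed it too, with 19.6 and 16.6 against 65.2 and 44.9 CPM in the cluster led by Gzmb and Scin. Summed markers of that class were 6339 and 5930.4 CPM in control, 10298 and 11242 in vehicle, then 7486 and 7046 CPM in IACS-70654, and the part of this shift in the result was not tested.

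Stem cells had another order of groups. Their Cdkn1a was 6.51 and 8.98 CPM in control, 21.9 and 24.0 in vehicle, then 14.7 and 16.7 in IACS-70654, so the vehicle libraries were the highest, and neither contrast with them was called. Lymphoid-primed progenitors had 29.9 and 47.8 CPM in control, 49.5 and 45.7 in vehicle, then 64.4 and 55.7 in IACS-70654, which was not called. Over the 8 classes, the log2 change of Cdkn1a was above 0 in 7, with a median of 0.72.

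Cdkn1b, the inhibitor tied to withdrawal from the cycle, was higher as well. Its log2 change was above 0 in 8 of 8 classes, with a median of 0.61. It was called in monocyte progenitors, at 19.5 and 17.5 CPM in control, 19.3 and 20.0 in vehicle, then 28.1 and 29.5 in IACS-70654 (log2 change 0.52, SE 0.093, adjusted p = 3.2e-05). It was also called in neutrophil progenitors (10.8 and 11.3 CPM in control, 11.8 and 11.3 in vehicle, then 18.3 and 17.1 in IACS-70654; log2 change 0.57, SE 0.13, adjusted p = 3.6e-04) and in basophil and mast cell progenitors (54.2 and 51.1 CPM in control, 38.2 and 53.1 in vehicle, then 70.0 and 83.1 in IACS-70654; log2 change 0.69, SE 0.17, adjusted p = 6.3e-04). In stem cells it was 29.97 and 32.9 CPM in control, 32.5 and 34.6 in vehicle, then 55.8 and 50.2 in IACS-70654, with no overlap, but did not pass the test (log2 change 0.66, SE 0.21, adjusted p = 0.061). All 3 calls of Cdkn1b were lost by DESeq2, with thinned cells and without vehicle 1, and that of neutrophil progenitors also at 2 times the clustering resolution. They were also lost without 1 of the IACS-70654 libraries, library 1 in neutrophil progenitors and library 2 in the others. The adjusted p reached 0.22 in basophil and mast cell, 0.62 in monocyte and 0.52 in neutrophil progenitors over the alternatives.

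Cdkn2c rose in neutrophil progenitors (8.02 and 7.70 CPM in control, 5.90 and 5.35 in vehicle, then 10.0 and 11.03 in IACS-70654; log2 change 0.81, SE 0.18, adjusted p = 2.3e-04) and in multipotent progenitors (9.35 and 9.86 CPM in control, 11.1 and 7.48 in vehicle, then 16.1 and 16.1 in IACS-70654; log2 change 0.68, SE 0.20, adjusted p = 0.0072). The first call was lost by DESeq2, with thinned cells and without vehicle 1. The second held in 8 of 16 alternatives and was lost by DESeq2, with at most 5% mitochondrial UMIs, with genes centered before clustering, at 2 times the resolution and without any 1 of the 4 libraries. Among the cyclins and kinases, 3 of 6 calls were in megakaryocyte progenitors. Their Cdk6 rose, with 674 and 727 CPM in control, 762 and 726 in vehicle, then 1198 and 1214 in IACS-70654 (log2 change 0.61, SE 0.051, adjusted p = 1.9e-13). Their Ccnd2 fell, with 223 and 246 CPM in control, 202 and 207 in vehicle, then 121 and 109 in IACS-70654 (log2 change -0.89, SE 0.10, adjusted p = 2.5e-09). Both IACS-70654 libraries lay apart from the other 4 for each gene, and both calls held in 17 of 17 alternatives. Summed markers of megakaryocyte progenitors were 8421 and 8827 CPM in control, 9195 and 9765 in vehicle, then 10942 and 10627 in IACS-70654. The part of this shift in the differences of that class was not tested. Ccnd1 in megakaryocyte progenitors also fell, with 9.93 and 14.5 CPM in control, 11.9 and 18.6 in vehicle, then 0.525 and 6.87 in IACS-70654 (log2 change -2.27, SE 0.52, adjusted p = 0.0011 by edgeR). That call rests on 27 and 15 UMIs in vehicle and 1 and 8 in IACS-70654. It was lost by DESeq2 and without IACS-70654 1, vehicle 1 or vehicle 2. Ccnd2 fell in erythroid progenitors (45.1 and 44.5 CPM in control, 54.5 and 49.2 in vehicle, then 36.4 and 35.4 in IACS-70654; log2 change -0.56, SE 0.078, adjusted p = 3.0e-06), which was lost with thinned cells and without vehicle 1. In basophil and mast cell progenitors Ccnd3 rose (177 and 161 CPM in control, 139 and 134 in vehicle, then 213 and 257 in IACS-70654; log2 change 0.64, SE 0.10, adjusted p = 5.6e-08) and Cdk4 fell (158 and 149.6 CPM in control, 168 and 144 in vehicle, then 127 and 104 in IACS-70654; log2 change -0.54, SE 0.12, adjusted p = 1.1e-04). The Cdk4 call held in 10 of 17 alternatives and was lost by DESeq2, with thinned cells, with library totals, with genes centered before clustering, at 2 times the resolution and without IACS-70654 2 or vehicle 1. The Ccnd3 call was lost with genes centered before clustering. The log2 change of Cdk4 was below 0 in 8 of 8 classes, with a median of -0.26.

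**Figure D3:**
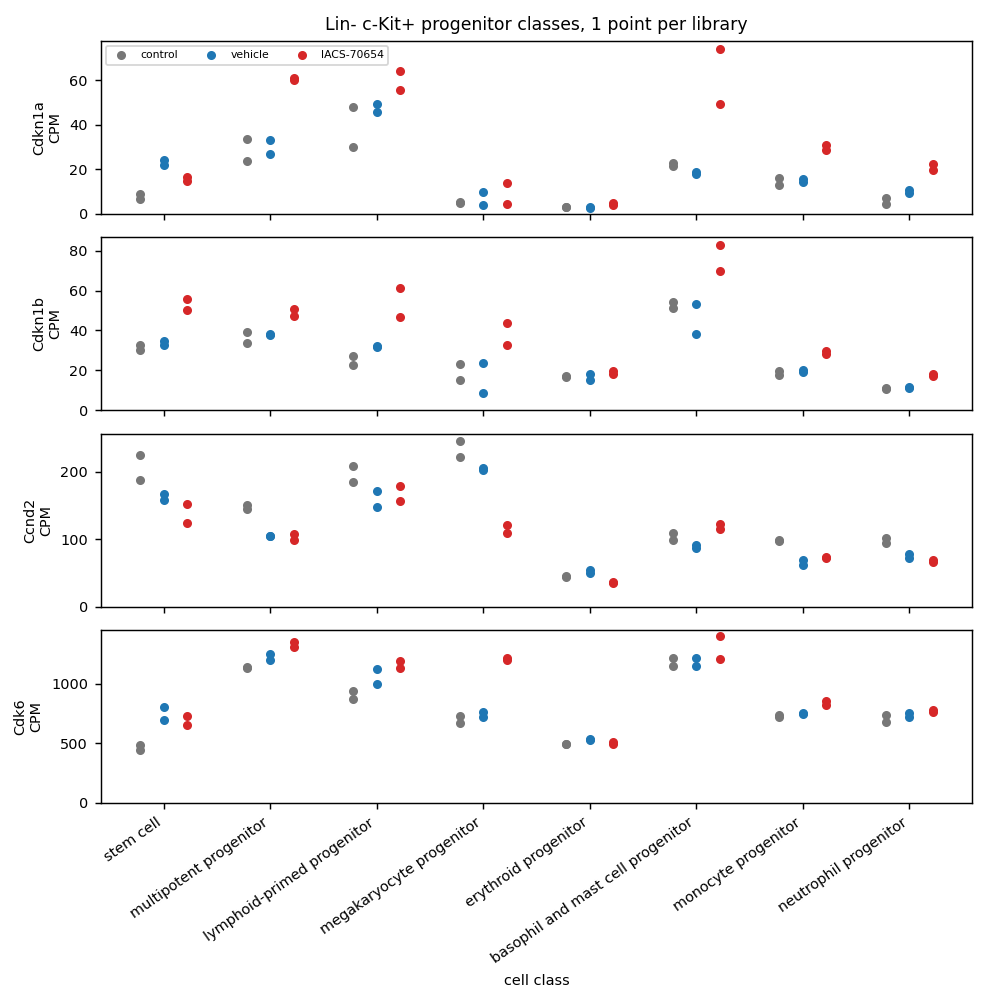
CPM of Cdkn1a, Cdkn1b, Ccnd2 and Cdk6 in the 8 Lin- c-Kit+ classes, 1 point per library and a color per group. The IACS-70654 points lie above the others for Cdkn1a in basophil and mast cell, monocyte, multipotent and neutrophil progenitors and for Cdk6 in megakaryocyte progenitors, where those of Ccnd2 lie below.

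Few members differed between vehicle and control in HSPCs. Vehicle against control called 3 of 70 pairs, beside 0.89% of all pairs (0.586% higher and 0.303% lower). Ccnd2 fell in monocyte progenitors (98.2 and 97.4 CPM in control, 62.2 and 68.4 in vehicle, then 72.6 and 74.2 in IACS-70654; log2 change -0.64, SE 0.057, adjusted p = 4.5e-12) and multipotent progenitors (152 and 145 CPM in control, 105 and 105 in vehicle, then 99.5 and 108 in IACS-70654; log2 change -0.54, SE 0.083, adjusted p = 3.1e-07). Cdk6 rose in stem cells (443 and 484 CPM in control, 698 and 803 in vehicle, then 732 and 653 in IACS-70654; log2 change 0.62, SE 0.082, adjusted p = 4.4e-10). None of the 3 was called between IACS-70654 and vehicle. The calls in multipotent progenitors and stem cells were lost at 0.5 and 2 times the clustering resolution and with thinned cells, and that of multipotent progenitors also with library totals and with genes centered before clustering (log2 changes -0.57 to -0.10 over the alternatives), and that of monocyte progenitors held in 17 of 17 alternatives. IACS-70654 against control, which shares its libraries with both contrasts above, called 19 of 70 pairs, 12 higher and 7 lower, beside 4.43% of all pairs (1.85% higher and 2.58% lower, or 2.78% and 1.90% with library totals). Pairs called against control but not against vehicle included Cdkn2d in multipotent progenitors (24.2 and 25.7 CPM in control, 36.6 and 35.9 in vehicle, then 40.6 and 41.0 in IACS-70654, log2 change 0.64), Cdkn2c in megakaryocyte progenitors (11.7 and 7.23 CPM in control, 13.7 and 14.8 in vehicle, then 28.4 and 23.2 in IACS-70654, log2 change 1.32) and Ccnd2 in stem cells (188 and 225 CPM in control, 167 and 158 in vehicle, then 152 and 125 in IACS-70654, log2 change -0.62). Whether these differed between the contrasts was not tested. The call of Cdkn2d held in 12 of 17 alternatives and turned to -0.11 at 0.5 times the resolution. It was lost by DESeq2, with thinned cells, at 2 times the resolution and without control 1. The call of Cdkn2c held in 13 of 17 (lost by DESeq2, with thinned cells and without IACS-70654 1 or control 2) and that of Ccnd2 in 14 of 17 (lost with thinned cells and without IACS-70654 2 or control 2).

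In CD45+ cells, Cdkn2d was called higher in vehicle than in control and lower with IACS-70654 than with vehicle, each in several classes. Vehicle against control called 9 of 74 pairs, beside 3.28% of all pairs, and 5 of these were Cdkn2d, all higher (1.71% of all pairs were higher and 1.57% lower with TMM scaling, 0.967% and 4.03% with library totals). IACS-70654 against vehicle called 12 of 74, beside 9.18%, and 5 were Cdkn2d, all lower (4.46% of all pairs were lower and 4.72% higher with TMM, 2.72% and 9.65% with library totals). In mature neutrophils it was 285 and 279.5 CPM in control, 404 and 379 in vehicle, then 311 and 302 in IACS-70654 (log2 change 0.73, SE 0.042, adjusted p = 1.5e-22 for vehicle against control, and log2 change -0.62, SE 0.035, adjusted p = 1.6e-22 for IACS-70654 against vehicle). In monocytes it was 112 and 119 CPM in control, 175 and 161 in vehicle, then 101 and 107 in IACS-70654 (log2 change 0.52, SE 0.071, adjusted p = 9.2e-06, and log2 change -0.68, SE 0.066, adjusted p = 3.6e-09), where the call against control was lost without control 1 or vehicle 1. Vehicle libraries were the highest in both classes, and the IACS-70654 libraries lay below them in both. The 10 markers of each class summed to 42976 and 43350 CPM in control, 43712 and 42877 in vehicle, then 36976 and 36264 in IACS-70654 for mature neutrophils, and to 7156 and 7031 CPM, 7050.3 and 7243 and then 5395 and 5188 for monocytes. The part of these shifts in the Cdkn2d differences was not tested.

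The log2 change of Cdkn2d was above 0 in 9 of 9 CD45+ classes for vehicle against control (median 0.52) and below 0 in 9 of 9 for IACS-70654 against vehicle (median -0.62). Both contrasts share the vehicle libraries, so the opposite signs are not independent. Secondary-granule precursors had 201 and 195 CPM in control, 261 and 258 in vehicle, then 206 and 204 in IACS-70654 (0.59 and -0.55 on the log2 scale). Il1b-rich neutrophils had 198 and 230.4 CPM in control, 334 and 337 in vehicle, then 238 and 231 in IACS-70654 (0.78 and -0.82), but at 2 times the clustering resolution these were -0.02 and 0.36, and the call against vehicle was also lost at 0.5 times. Early precursors had 40.2 and 44.9 CPM in control, 74.0 and 75.2 in vehicle, then 68.1 and 69.7 in IACS-70654 and were called for vehicle against control (log2 change 0.81, SE 0.14, adjusted p = 5.6e-04), which was lost with thinned cells and without control 1. They were not called against vehicle with IACS-70654 and were called higher against control (log2 change 0.65, adjusted p = 3.4e-04 by edgeR). That call was lost with thinned cells, at 0.5 and 2 times the resolution and without control 1, with log2 changes down to 0.13. With library totals in place of TMM scaling, the calls in mature neutrophils and secondary-granule precursors were lost in both contrasts because their size dropped under 0.5. The log2 changes were then -0.35 and -0.34 for IACS-70654 against vehicle, with the direction kept. Under that scaling the median log2 change over all genes was 0.29 in mature neutrophils and 0.22 in secondary-granule precursors, against 0.024 and 0.0054 with TMM. The call of IACS-70654 against vehicle in mature neutrophils was also lost with genes centered before clustering.

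Mature neutrophils lay mostly in 1 cluster per group, led by Gm16556 and Slc7a11 in control (2343 of 2585 cells), by Prok2 and Retnlg in vehicle (2195 of 2642) and by Stfa2 and Stfa3 in IACS-70654 (3571 of 3685). Within the cluster of vehicle, Cdkn2d was 414 and 386 CPM in vehicle and 305 and 321 CPM in its 62 IACS-70654 cells, below it. Within the cluster of IACS-70654, it was 289 and 278 CPM in the 83 vehicle cells and 312 and 302 CPM in IACS-70654, not below it. Il1b-rich neutrophils showed the same order. In their cluster of vehicle cells, Cdkn2d was 337 and 339 CPM in vehicle against 251 and 274 CPM in IACS-70654, and in that of IACS-70654 cells 219 and 211 against 237 and 229 CPM. The cycling cluster of secondary-granule precursors held all 3 groups, and there it was 232 and 230.3 CPM in control, 277 and 282 in vehicle, then 254 and 251 in IACS-70654. The monocyte difference was present in both of its main clusters, with 142 and 142 against 78.6 and 85.9 CPM and 199 and 175 against 126 and 126 CPM. In mature and Il1b-rich neutrophils the direction of the Cdkn2d difference between IACS-70654 and vehicle thus turned from 1 cluster to the other.

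**Figure D4:**
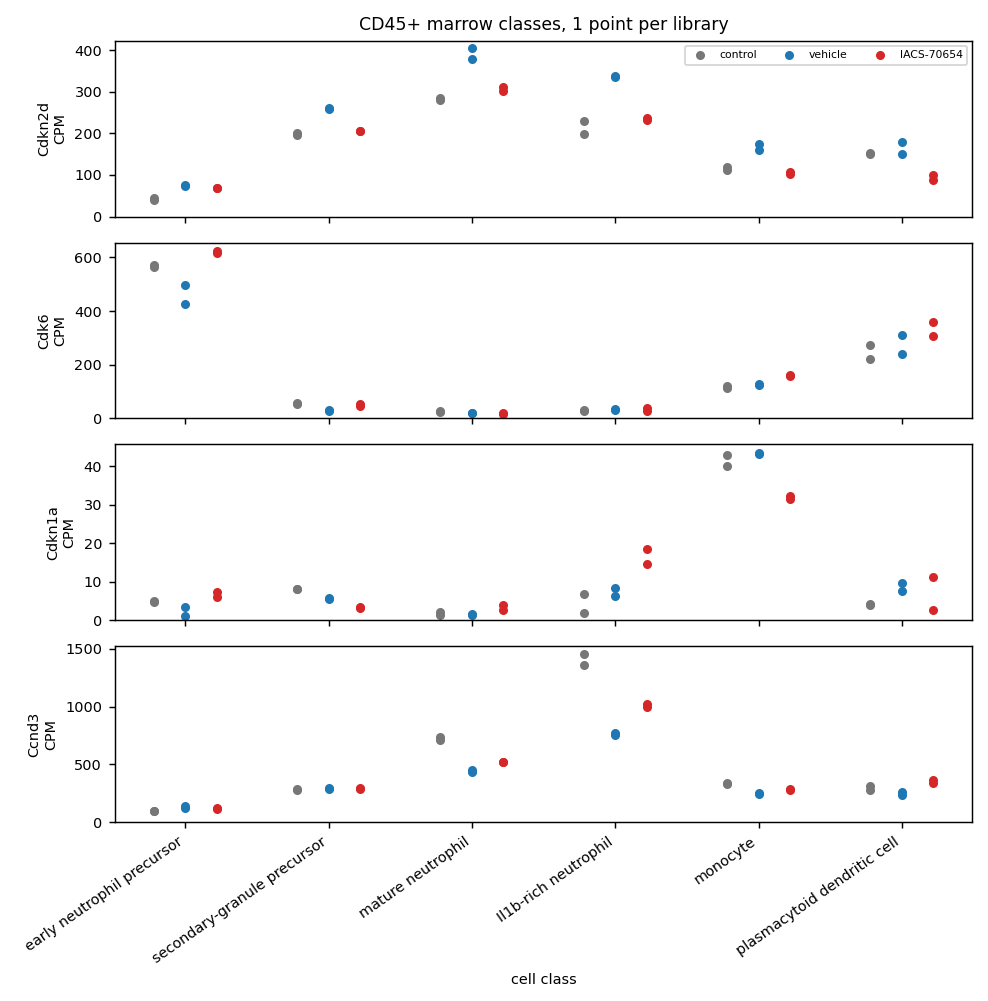
CPM of Cdkn2d, Cdk6, Cdkn1a and Ccnd3 in 6 CD45+ classes, 1 point per library and a color per group. For Cdkn2d the vehicle points lie highest in mature and Il1b-rich neutrophils, secondary-granule precursors and monocytes, and for Ccnd3 in Il1b-rich neutrophils the control points do.

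Cdk6 and Cdkn1a in neutrophils did not move one way. In secondary-granule precursors, Cdk6 was 52.9 and 57.1 CPM in control, 30.8 and 28.4 in vehicle, then 46.5 and 53.2 in IACS-70654, a fall from control to vehicle (log2 change -0.70, SE 0.073, adjusted p = 1.5e-10 by edgeR) and a rise from vehicle to IACS-70654 (log2 change 0.55, SE 0.069, adjusted p = 5.9e-09 by edgeR). In the cycling cluster of that class, the levels were 68.2 and 77.8, 43.1 and 41.1 and 72.1 and 82.4 CPM in the same order of groups. In mature neutrophils, Cdk6 was 24.1 and 28.8 CPM in control, 21.7 and 20.8 in vehicle, then 18.7 and 16.6 in IACS-70654, lower with IACS-70654 (log2 change -0.54, SE 0.12, adjusted p = 2.4e-04). Within the cluster of IACS-70654 cells it was 10.1 and 10.1 CPM in vehicle against 18.9 and 16.7 in IACS-70654, the reverse order, from few vehicle cells. The rise in secondary-granule precursors was lost with thinned cells, at 0.5 times the resolution and without IACS-70654 2 or vehicle 2. The fall in mature neutrophils was lost by DESeq2, with library totals, at 0.5 times the resolution and without IACS-70654 2.

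Cdkn1a fell in secondary-granule precursors, with 8.15 and 8.11 CPM in control, 5.74 and 5.399 in vehicle, then 3.23 and 3.48 in IACS-70654 (log2 change -0.93, SE 0.18, adjusted p = 2.3e-05 by edgeR), a call lost with thinned cells. Many cells of that class lay in different clusters by group. A cluster led by Ly6g held 1540 vehicle and 45 IACS-70654 cells, and one led by Cstdc5 and Stfa3 held 79 and 1756. The part of this in the Cdkn1a difference was not tested. In Il1b-rich neutrophils Cdkn1a was 6.90 and 1.99 CPM in control, 8.41 and 6.24 in vehicle, then 14.5 and 18.6 in IACS-70654 (log2 change 0.91, SE 0.25, adjusted p = 0.0015 by edgeR), but the call was lost by DESeq2, at 0.5 times the resolution and without IACS-70654 2 or vehicle 2, and the sign turned at 2 times the clustering resolution (-0.31). Ccnd3 fell from control to vehicle in Il1b-rich neutrophils, with 1456 and 1358 CPM in control, 751 and 768 in vehicle, then 994 and 1026 in IACS-70654 (log2 change -0.77, SE 0.052, adjusted p = 6.1e-27 by edgeR), and this held in 16 of 16 alternatives. The 8 markers of that class summed to 2637 and 2790 CPM in control, 2171 and 2061 in vehicle, then 2860 and 2647 in IACS-70654. The part of this in its Ccnd3, Cdkn2d and Cdkn1a differences was not tested. Ccnd2 in early precursors was 50.2 and 48.3 CPM in control, 22.3 and 27.9 in vehicle, then 18.04 and 22.2 in IACS-70654, lower in vehicle than in control (log2 change -0.96, SE 0.18, adjusted p = 0.0016), a call that was lost with thinned cells and without control 1, control 2 or vehicle 1. In mature neutrophils Ccnd2 was 5.27 and 5.70 CPM in control, 1.53 and 1.549 in vehicle, then 4.84 and 5.08 in IACS-70654, a fall from control to vehicle (log2 change -1.56, SE 0.37, adjusted p = 5.1e-04 by edgeR) and a rise from vehicle to IACS-70654 (log2 change 1.41, SE 0.32, adjusted p = 2.3e-04 by edgeR), but the first turned to 0.41 at 2 times the clustering resolution and the second to -0.64 when genes were centered within libraries before clustering. Each held in 12 of 17 alternatives, and both were lost by DESeq2, with thinned cells, with centering and at 0.5 and 2 times the resolution. IACS-70654 against control called 9 of 74 pairs, 2 higher and 7 lower, beside 8.62% of all pairs (3.88% higher and 4.73% lower).

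Outside the neutrophils, plasmacytoid dendritic cells had less Ccnd1 with IACS-70654, at 46.3 and 36.7 CPM in control, 45.1 and 37.4 in vehicle, then 4.47 and 11.04 in IACS-70654 (log2 change -2.35, SE 0.39, adjusted p = 1.6e-04). These cells had the highest mean Ccnd1 of the CD45+ classes, and both IACS-70654 libraries were below all others. The call rests on 28 and 25 UMIs in vehicle and 4 and 12 in IACS-70654, and was lost with thinned cells and at 2 times the resolution. The 8 markers that name the class summed to 10401 and 10088 CPM in control, 10169 and 9459 in vehicle, then 5898 and 5453 in IACS-70654, and the part of this in the Ccnd1 and Cdkn2d differences was not tested. Their Cdkn2d was 152 and 149 CPM in control, 179 and 149 in vehicle, then 101 and 88.3 in IACS-70654 (log2 change -0.82, SE 0.17, adjusted p = 0.0014), a call lost by DESeq2, with thinned cells, at 2 times the resolution and without IACS-70654 2 or vehicle 1. Basophils and mast cells had more Ccnd2, at 41.3 and 33.3 CPM in control, 51.9 and 42.5 in vehicle, then 267 and 159.5 in IACS-70654 (log2 change 2.09, SE 0.36, adjusted p = 1.7e-04). The class held as few as 20 cells in a library, and this call was lost by DESeq2, at 0.5 times the resolution and without IACS-70654 1. Its 8 markers summed to 28244 and 38138 CPM in control, 38347 and 36214 in vehicle, then 29057 and 24152 in IACS-70654, and the part of this in the Ccnd2 difference was not tested.

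Shares of low-cycle cells gave the other side of cycle exit. By the core list, both libraries with IACS-70654 were above both vehicle libraries in 6 of 8 Lin- c-Kit+ classes and below in 1. By the list as first set, they were above in 3 and below in 0. In megakaryocyte progenitors the share was 2.59% and 0% in vehicle, the latter 0 of 84 cells, which allows a share of up to 3.57%, and 8.21% and 10.1% in IACS-70654. In monocyte progenitors it was 1.31% and 0.571% against 5.18% and 3.45%, and in lymphoid-primed progenitors 14.2% and 10.0% against 25.2% and 24.0%. Stem cells were at 26.5% and 26.4% against 27.0% and 27.1%. Without thinning the megakaryocyte progenitor shares were 0.851% and 0% against 3.12% and 4.30%, and those of stem cells 12.2% and 10.2% against 13.1% and 13.6%. In neutrophil progenitors the shares were 5.70% and 8.05% in control, 1.92% and 1.35% in vehicle, then 2.60% and 3.47% in IACS-70654. An exact permutation test over 2 against 2 libraries cannot go below p = 0.333 (two-sided). Groups that do not differ would lie apart at that rate in each class, so these counts are a description. No other test of these shares was made. In CD45+ classes, both IACS-70654 libraries were above both vehicle libraries in 3 of 9 classes and below in 2 (1 and 0 by the list as first set), and secondary-granule precursors were at 59.1% to 61.2% in all 6 libraries.

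The inhibitor rise of HSPCs was present among cycling cells. Among high-cycle cells alone, IACS-70654 against vehicle called 12 of 65 pairs, 9 higher and 3 lower, beside 4.22% of all pairs. Cdkn1a was called in basophil and mast cell, monocyte, multipotent and neutrophil progenitors (log2 changes 2.10, 0.92, 1.03 and 0.95), and Cdkn1b in 3 of these (0.88, 0.55 and 0.61, multipotent progenitors not among them). Ccnd2 in megakaryocyte progenitors was lower (-1.13) and Cdk6 higher (0.62). Few monocyte and neutrophil progenitors were low-cycle, so leaving those cells out removed little of either class. Their calls among high-cycle cells are thus no independent support for those of the whole class. Among low-cycle cells, 3 classes had enough cells and edgeR called 0 of 17 pairs, beside 0.961% of all pairs, with 1 at an unadjusted p under 0.05 and 0 by DESeq2. The treatment difference did not pass the test for differing between low-cycle and high-cycle cells in any of 21 pairs of the Lin- c-Kit+ classes (smallest adjusted p = 0.48 by edgeR's interaction term).

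Among low-cycle CD45+ cells 9 of 40 pairs were called, beside 14.1% of all pairs, and 4 were Cdkn2d, in Il1b-rich neutrophils (-0.88), mature neutrophils (-0.63), monocytes (-0.91) and secondary-granule precursors (-0.76), all lower with IACS-70654. Nearly all mature neutrophils were low-cycle by the core list, so their result largely repeats that of the whole class. There 1872 of 9875 genes were called among low-cycle cells and 1878 of 10017 in the class. Without IACS-70654 2 the count of member pairs among low-cycle cells was 5. By the longer cycle list, 3 of 8 pairs were called, beside 6.43%. Among high-cycle cells 4 of 23 pairs were called, beside 6.26%. The Cdkn2d difference in secondary-granule precursors had an interaction of -0.40 on the log2 scale, thus was more negative in low-cycle cells (adjusted p = 9.2e-06 by the interaction term), which is under the size set for a call.

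Other genes of the pathway put these values in place. With IACS-70654 against vehicle in HSPCs, S-phase genes were called lower in 28 and higher in 0 of 327 gene–class pairs, and G2/M genes lower in 27 and higher in 9 of 402. Genes of quiescence were higher in 23 and lower in 10 of 126, p53 targets higher in 3 and lower in 0 of 89, and G1/S partners higher in 4 and lower in 8 of 201. Over all pairs 2.06% were higher and 3.18% lower, so the p53 targets and the G1/S partners were near that background. In basophil and mast cell progenitors, the class with the most members called, Uhrf1 (-1.36), Clspn (-1.18) and Rrm2 (-1.10), which serve DNA replication, fell on the log2 scale. Tfdp1, the partner of E2F, fell (-0.78), as did Myc (-0.65), and Rbl2, the p130 pocket protein of resting cells, rose (0.90). Btg2 (0.91) and Txnip (1.40), both linked to slow growth, rose, and Mecom, a stem cell factor, fell (-1.25). Of that class, the cluster led by Prss34 and Mcpt8 held 716 vehicle and 123 IACS-70654 cells. The cluster led by Gzmb and Scin held 233 and 287. The part of this shift in these changes, and in the members called in that class, was not tested. Vehicle against control called G2/M genes higher in 24 and lower in 0 pairs of HSPCs, beside 0.586% of all pairs higher.

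In CD45+ cells IACS-70654 against vehicle called G2/M genes lower in 55 and higher in 7 of 399 pairs, S-phase genes lower in 14 and higher in 2 of 311, and p53 targets higher in 12 and lower in 6 of 90. Over all pairs 4.72% were higher and 4.46% lower, so the count of S-phase genes lower was near that background with TMM. With library totals 9.65% of all pairs were higher and 2.72% lower, and the lists were not counted under that scaling. The p53 targets called did not go one way in mature neutrophils, where Bax (1.15), Pmaip1 (1.10) and Ei24 (1.03) rose and Bbc3 (-0.86) fell. Foxo1, a factor of resting cells, rose (3.08) there, and Hsp90ab1, a chaperone of Cdk4, fell (-0.72).

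By pattern over the 17 BM classes, each member was set beside the genes most like it (Pearson's r of mean log2(CPM + 1), among 9319 genes). The points share libraries and depth, so r is a description. Cdk4 was most like Npm1 (r = 0.996), Trap1 and Pa2g4, genes of growing cells. Cdkn1c was most like Col4a1 (0.967) and Prdm16 (0.963), Cdkn2c like Racgap1 (0.911), a cytokinesis gene, and Ccnd3 like Stk24 (0.960). Cdkn2d was most like Cpeb2 (0.9504), Fry (0.949) and Mdm2 (0.942). Cdkn1a had the weakest best match, Mir99ahg (0.823).

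In 2208L tumor cells, Ccnd1 was the main D-cyclin, and of the inhibitors with a mean of at least 10 CPM Cdkn1a differed most by condition. There was 1 library per condition, so no test was made, and intervals are exact Poisson intervals (95%) that cover counting error only. Ccnd1 made up 74.6% to 81.6% of D-cyclin UMIs, at 225 CPM in vehicle, 247 in IACS-70654, 192 in anti–PD-1 and 303 in the combination. Cdkn1a was 42.4 CPM (37.5 to 47.9) in vehicle, 88.1 (82.5 to 93.9) in IACS-70654, 23.7 (20.4 to 27.3) in anti–PD-1 and 89.6 (85.0 to 94.4) in the combination. Both libraries with IACS-70654 were thus above both without, as were 43.6% of all genes in these cells. A ratio was counted from 1.5-fold in either direction with a mean of at least 10 CPM. Over the 6 pairs of conditions 6 of 42 member ratios (14.3%) were past it, beside 9.67% of all gene–pair ratios, and 5 of these were Cdkn1a. For IACS-70654 to vehicle it was 1 of 7 members, beside 12.99% of genes, which is near that background. IACS-70654 to vehicle was 2.07 (1.81 to 2.39), anti–PD-1 to vehicle 0.557 (0.460 to 0.674), and the combination to IACS-70654 1.02 (0.936 to 1.11). The other was Ccnd1, 1.58 (1.49 to 1.67) in the combination over anti–PD-1. An unnamed cluster led by Camp and Foxq1, with 10 of 12 tumor cell markers detected, was left out (15 vehicle, 150 IACS-70654, 23 anti–PD-1 and 201 combination cells), and with it the Ccnd1 ratio was 1.39, under the limit. It was also under it at 0.5 times the resolution (1.39) and among low-cycle cells (1.34). The Cdkn1a ratio of IACS-70654 to vehicle was 1.81 to 3.12 over the alternatives, and that of anti–PD-1 to vehicle was 0.746 among low-cycle cells, no longer past the limit.

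These pooled ratios mixed tumor cell clusters of unequal level and unequal share. A keratinized cluster led by Krt14 and Krt6a held 30 cells of IACS-70654 and 53 of the combination and 0 of the others, and its Cdkn1a was 697 and 659.9 CPM. A second cluster, led by Lyz1 and Fxyd6, was at 216 CPM in vehicle, 274 in IACS-70654 and 301 in the combination. In the other clusters with at least 20 cells of both, Cdkn1a in vehicle and IACS-70654 was 23.8 and 38.0 CPM (led by Ptn and Krt19), 27.3 and 30.2 CPM (Naaladl2 and Cpm) and 80.9 and 50.4 CPM (Hmga2 and Krt17). The cluster with the most vehicle and the most anti–PD-1 tumor cells, led by Tesc and Igfbp2, had 175 vehicle, 232 anti–PD-1, 21 combination and 8 IACS-70654 cells. Its Cdkn1a was 20.9, 14.7 and 34.6 CPM and its Ccnd1 151, 144 and 169 CPM in the first 3 of these. So the pooled ratio of IACS-70654 to vehicle was not seen within each cluster, and in the cluster led by Hmga2 and Krt17 the order was reversed, with 34 vehicle cells. The pooled level of Ccnd1 was higher with IACS-70654 than with vehicle, but within the 3 clusters led by Ptn and Krt19, Naaladl2 and Cpm, and Hmga2 and Krt17 it was lower, at 354 and 201, 148 and 21.1, and 687 and 387 CPM.

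Of the other members in tumor cells, Cdk4 was 204 to 213 CPM, Cdkn1b 35.7 to 47.9 and Cdk6 38.1 to 55.1 CPM over the 4 libraries. Cdkn2d was 13.9 to 18.3 CPM, and Ccnd2, Cdkn1c and Cdkn2c stayed under 10 CPM in each. Cdkn1c was 7.88 CPM in vehicle, 2.39 in IACS-70654, 8.92 in anti–PD-1 and 2.79 in the combination, from 25 to 72 UMIs, and its ratio of IACS-70654 to vehicle was 0.303 (0.179 to 0.500). Cdkn2c was 1.29, 3.82, 1.24 and 2.47 CPM in the same order, from 8 to 40 UMIs, with a ratio of 2.97 (1.37 to 7.34). Low-cycle cells were 82.7% of tumor cells in vehicle, 76.4% in IACS-70654, 81.1% in anti–PD-1 and 76.3% in the combination. Among low-cycle cells alone the Cdkn1a ratio of IACS-70654 to vehicle was 3.12. Trp53 was read at 63.0 to 68.2 CPM in these Trp53-null cells. Where the counted reads lie relative to the deletion is not known here, so this does not check the genotype. Summed macrophage markers within the tumor cell class were 3247, 5403, 1206 and 3848 CPM in vehicle, IACS-70654, anti–PD-1 and the combination, against 69545 to 98418 CPM in macrophages, and their part in the ratios was not tested.

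**Figure D5:**
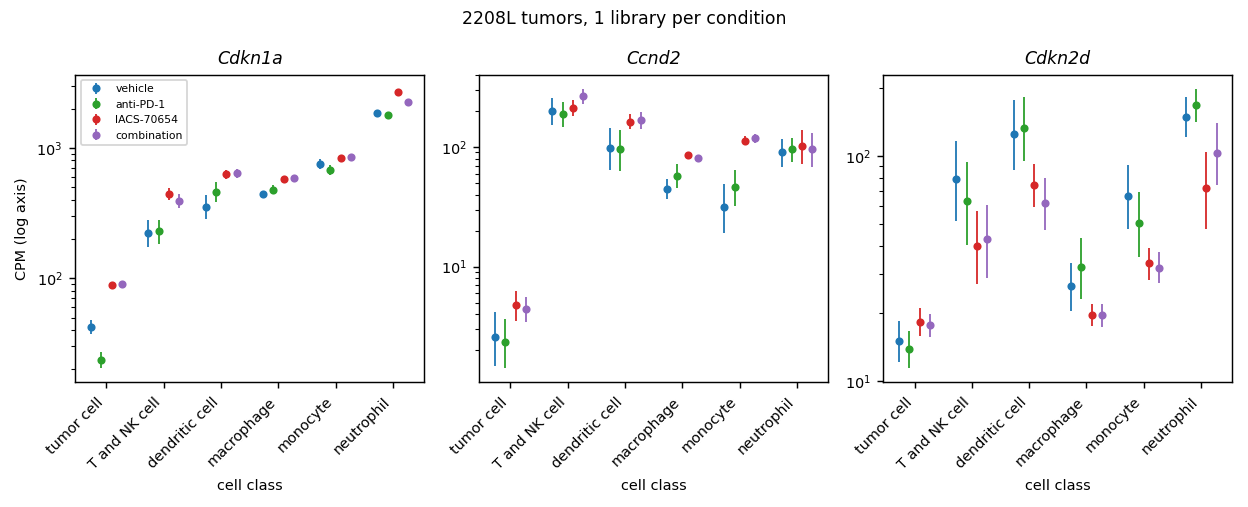
CPM (log axis) of Cdkn1a, Ccnd2 and Cdkn2d in 6 tumor classes, 1 point per condition with a 95% exact Poisson interval for counting error. Cdkn1a is highest in neutrophils in all 4 conditions, and Cdkn2d lies lower in both conditions with IACS-70654 than in both others in the 5 classes other than tumor cells.

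Among the immune cells of the tumors the same split recurred for several members. Cdkn1a was higher in both libraries with IACS-70654 than in both without in 7 of 9 classes, tumor cells among the 7, the exceptions being endothelial cells and fibroblasts. In TANs it was 1845 CPM in vehicle, 2677 in IACS-70654, 1792 in anti–PD-1 and 2226 in the combination, and in T and NK cells 221, 444, 228 and 392 CPM. T and NK cells fell into 2 clusters, one led by Trbc2 and Cd3g with 78, 64, 103 and 90 cells and one led by Il17a and St6galnac3 with 20, 76, 17 and 76 cells in that order of conditions. In the first, Cdkn1a was 99.4, 94.6, 171 and 208 CPM, which was not split by IACS-70654. In the second it was 385 in vehicle, 538 in IACS-70654 and 490 CPM in the combination, and that cluster held more of the class in both conditions with IACS-70654. In the larger TAN cluster Cdkn1a was 1908, 2737, 1932 and 2235 CPM, split as in the class. Of all genes, 32.5% in TANs, 23.3% in T and NK cells, 28.7% in tumor monocytes, 21.2% in dendritic cells and 20.2% in B cells were split that way up. There were 15 B cells in IACS-70654 and 13 in the combination. Cdkn2d was split the other way in 6 classes, for example in tumor monocytes at 66.6, 33.4, 50.3 and 32.0 CPM (24.3% of genes down) and in TANs at 149, 71.8, 168 and 103 CPM (18.3% down). Ccnd2 was higher with IACS-70654 in tumor monocytes (31.6, 113, 46.2 and 118 CPM) and TAMs (44.6, 86.0, 57.3 and 80.4 CPM), and Ccnd1 lower in TAMs (115, 44.8, 78.1 and 44.0 CPM). In TAMs 29.2% of genes were split up and 27.8% down, so a split alone is no mark of a member. TAMs lay in different clusters by condition, and an unnamed cluster led by Fcrls and Acp5, in which all 10 macrophage markers were detected, was left out of them with 362 vehicle, 36 IACS-70654, 293 anti–PD-1 and 44 combination cells. In that cluster Ccnd2 was 48.6, 85.3, 46.5 and 70.1 CPM and Ccnd1 103, 29.5, 107 and 44.8 CPM in the same order. In the TAM cluster led by Mertk and Plxdc2, Ccnd2 was 38.7, 73.8, 77.2 and 76.0 CPM, so it was not split there. In that led by Apoe and C1qa it was 23.4, 56.2, 37.6 and 57.6 CPM, and split as in the pool. Markers that name a class moved with the same split in tumor monocytes (6445, 2756, 7082 and 3032 CPM summed), T and NK cells (3418, 1820, 4424 and 2447 CPM), B cells (25159, 3172, 14015 and 4639 CPM), TANs (51385, 41950, 59047 and 32728 CPM) and TAMs (72981, 95255, 69545 and 98418 CPM). Their part in the splits of the members was not tested.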

How the data were processed

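Single-cell RNA was measured in 16 libraries, 6 of each BM sort and 4 of tumors. The authors deposited, per library, a filtered matrix of UMI counts, made with Cell Ranger on mm10 from CellPlex-tagged 3′ libraries by the file headers and the submitters' notes. Cells with 200 to 6000 genes and at most 10% mitochondrial UMIs were kept. They were clustered per sort on 2000 variable genes (30 components, resolution 1), leaving out the 10 members and the cycle and pathway lists, and named from fixed markers. A doublet caller marked too few cells to be used, so the top 5% of doublet scores were removed as an alternative. Counts were summed per class and library, scaled by TMM and tested with edgeR 4.0.16 (quasi-likelihood, R 4.3.3), all 6 libraries of a sort together, with p-values adjusted over all genes of a class. The script was tested on simulated counts. Genes outside the group were named by rule, as up to 4 genes of each pathway list with the largest called change, in the class with the most members called, and the 3 genes nearest to each member by pattern. DESeq2 1.42.0, other scalings, filters, resolutions, thinning, a replicate block and leaving out libraries were alternatives. The members and lists were chosen with earlier results of these data known.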

Additional observations from a re-analysis of the deposited data

Results flagged for a closer look

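Some members moved in opposite directions in different CD45+ classes under the same contrast, in every library of each class, and the difference between classes was not tested. All classes share the same libraries. Ccnd2 with IACS-70654 against control had a log2 change of 2.45 in basophils and mast cells but -1.31 in early precursors and -0.95 in Il1b-rich neutrophils. Cdkn2d in that contrast was at 0.65 in early precursors and -0.70 in plasmacytoid dendritic cells. The Ccnd2 call in Il1b-rich neutrophils held in 8 of 16 alternatives (lost by DESeq2, with thinned cells, with library totals, with no filter and without any 1 of the 4 libraries), and the Cdkn2d calls held in 13 of 17 in early precursors and 10 of 17 in plasmacytoid dendritic cells. With IACS-70654 against vehicle, Cdk6 was at 0.55 in secondary-granule precursors and -0.54 in mature neutrophils. Cdkn1a was at 0.91 in Il1b-rich neutrophils and -0.93 in secondary-granule precursors. No group had enough libraries for a check of single outlying libraries.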

How the results depend on the processing

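Of 1127 recomputed values of 67 named results, 952 kept direction and side of the threshold, 169 kept direction but were no longer called and 6 reversed. With IACS-70654 against vehicle, 15 calls in Lin- c-Kit+ classes became 8 by DESeq2 and 8 with thinned cells, and 8 to 16 without 1 library (8 without vehicle 1). The 12 in CD45+ classes became 7 by DESeq2, 7 with thinned cells and 7 at 0.5 times the resolution (8 to 13 without 1 library). For vehicle against control, the 3 in Lin- c-Kit+ classes became 1 with thinned cells and 1 at 0.5 and 2 times the resolution (3 to 3 without 1 library), and the 9 in CD45+ classes 6 to 10. For IACS-70654 against control, 19 became 11 by DESeq2 and 6 with thinned cells (13 to 20), and 9 became 3 with thinned cells (6 to 10). Low against high-cycle Lin- c-Kit+ cells gave 4 by DESeq2 (6 to 7).

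The cycle list as first set, which holds genes that mature neutrophils express, gave 4 calls of 11 pairs for low against high-cycle CD45+ cells (10 with S-phase genes alone). Within low-cycle CD45+ cells it gave 3 of 8 (0 by DESeq2, 1 with library totals, 0 with at most 1 UMI, 0 to 3 without 1 library), against 9 with the core list (4 by DESeq2, 5 to 9). It gave 4 of 17 classes with no overlap of low-cycle shares (8 with at most 4 UMIs, 7 to 11 without 1 library, 12 with the core list, 12 to 16). For Lin- c-Kit+ classes it could not be fitted.

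The reversed values were, with IACS-70654 against vehicle, -0.31 for Cdkn1a and 0.36 for Cdkn2d in Il1b-rich neutrophils at 2 times the resolution and -0.64 for Ccnd2 in mature neutrophils with genes centered before clustering. For vehicle against control they were -0.022 for Cdkn2d in Il1b-rich and 0.41 for Ccnd2 in mature neutrophils at 2 times the resolution, and for IACS-70654 against control -0.11 for Cdkn2d in multipotent progenitors at 0.5 times. Their cause was not tested. With a replicate block, the counts in the order IACS-70654 against vehicle, vehicle against control and IACS-70654 against control were 16, 3 and 21 in Lin- c-Kit+ and 12, 9 and 9 in CD45+ classes. Same-numbered libraries showed little common deviation (r from -0.096 to 0.137). Counting noise can hide a shared pool or run, so whether the numbers pair them is not settled. Depth limits small classes and genes under a few CPM, and intervals cover counting error only.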

Other observations

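Cells outside the named Lin- c-Kit+ classes did not share a single Cdkn1a order. In the unnamed cluster led by Hdac9 and Slc24a3, Cdkn1a was 17.8 and 23.0 CPM in control, 21.7 and 29.6 in vehicle, then 49.7 and 45.1 in IACS-70654. The IACS-70654 libraries were the highest there. The largest unnamed cluster, led by Apoe and Trib2 with 1871 cells, had 6.55 and 8.01 CPM in control, 5.35 and 6.95 in vehicle, then 13.9 and 5.30 in IACS-70654, so its groups overlapped. It made up 16.8% and 17.7% of control, 4.2% and 5.0% of vehicle and 2.2% and 2.2% of IACS-70654 cells of that sort.

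Neutrophils of the tumors and of the BM differed widely in Cdkn1a. It was 1792 to 2677 CPM in TANs and 1.41 to 3.87 CPM in mature BM neutrophils. Tumors and BM were separate preparations, so the difference cannot be told apart from the preparation, and no test was made.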
